A study of Mus musculus with 12 samples.

Results

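The genes of the cytosolic translation initiation factors (eIFs) and elongation factors (eEFs) were followed in NIH-3T3, a long-established fibroblast line from mouse embryos. All rows whose symbol begins with Eif or Eef and then a digit were taken as members, which gave 65 of the 15217 genes of the deposited table. The study asked how the place of the chemical conversion step in SLAM-seq affects what is measured. In SLAM-seq, cells build the uridine analogue 4-thiouridine (4sU) into RNA made during labelling, and iodoacetamide then alters the 4sU so that it is read as C. Conversion took place inside methanol-fixed cells (called fixed cells here) or on isolated RNA (called tubes here), and per the labels' protocols the reactions also differed in temperature and time, so these cannot be told apart. The 6 groups were fixed cells with no 4sU, 200 µM or 800 µM 4sU, and tubes with no 4sU, 200 µM or 800 µM 4sU, with 2 h of labelling and 2 libraries (A and B) per group. All groups were wild-type cells of this 1 line, grown in the same medium. Whether A and B came from separate cultures is not stated, so p-values reflect the spread between libraries alone, which may be technical.

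Library totals lay between 3629634 and 7762635 counts, lowest in library A of the tubes without 4sU. Members held 2.13% to 2.58% of the counts of a library. Fixed 800 µM library A stood apart, with a scaling factor of 0.835 against 0.926 to 1.15 elsewhere, and its results are given with and without it where it decides a call. The 8 fibroblast markers examined reached 17.1 to 14010 CPM (a gene's counts relative to its library's effective size), whereas the epithelial, endothelial, muscle and pluripotency markers in the table stayed at 0 to 0.855 CPM. In the remaining marker lists, Ptprc and Gfap stayed under 0.564 CPM, while Cd68, Tubb3 and Snap25 reached 0.751 to 11.1 CPM.

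Initiation factors bring the small ribosomal subunit and the initiator tRNA to the start codon of an mRNA. eIF4F binds the mRNA cap and unwinds the leader, eIF2 delivers the initiator tRNA, eIF3 holds the complex together, and eIF1 and eIF1A guard the choice of start codon. Elongation factors then drive the cycle of decoding and translocation: eEF1A brings aminoacyl-tRNA to the ribosome, the eEF1B subunits recharge eEF1A with GTP, and eEF2 moves the ribosome along the mRNA. In fibroblasts, as in other growing cells, many of these proteins are abundant, and the mRNAs of several carry a 5′ terminal oligopyrimidine (TOP) tract through which mTOR signalling controls their translation.

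The start-site sequences below are shown because of the TOP tract that the mRNAs of several members are known to carry. Each is the 40 bases around the RefSeq start of transcription (GRCm38.p6), 20 on each side, on the transcribed strand, with the longest run that begins with C and continues with C or T in capitals. The members shown are the 5 with an entry among the 9 members on a list of TOP mRNAs, and the helicase paralogs Eif4a1 and Eif4a2.
Eef1a1: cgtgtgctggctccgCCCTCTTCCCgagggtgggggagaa
Eif3f: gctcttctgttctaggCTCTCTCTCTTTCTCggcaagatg
Eef2: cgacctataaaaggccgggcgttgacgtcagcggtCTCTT
Eef1b2: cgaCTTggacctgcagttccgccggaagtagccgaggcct
Eif4b: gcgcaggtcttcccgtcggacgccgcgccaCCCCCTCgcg
Eif4a1: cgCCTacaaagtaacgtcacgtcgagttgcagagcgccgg
Eif4a2: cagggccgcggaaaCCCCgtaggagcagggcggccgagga

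The Eef1a1 window is chr9:78481705-78481744 on the minus strand, that of Eif3f chr7:108934395-108934434 on the plus strand and that of Eef2 chr10:81176611-81176650 on the plus strand. The run in Eef1a1 was 10 bases long and began 5 bases before the annotated start, and the run in Eif3f was 15 bases long. In Eef2 the run of 5 bases reached the end of the window, and the runs of Eif4b and Eef1b2 were 7 and 3 bases long. A run of at least 8 bases, searched on the transcribed strand, lay in the window of 11 of the 51 members with an entry (21.6%). The same was found for 16.1% of 11166 genes of the table and for 12.6% of all 32851 RefSeq promoters. A match is a description of letters and not a mapped start site.

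Elongation factors, Eif5a and the scanning factor Eif1 headed the members by level. Levels are given as TPM, a relative abundance corrected for gene length, as mean ± SD over all 12 libraries and thus over the 6 groups. Eef1a1, which delivers aminoacyl-tRNA, averaged 4057 ± 774 TPM. Eef2, the translocase, averaged 1603 ± 590 TPM, and Eif5a, the hypusine-bearing factor that helps stalled ribosomes, 1574 ± 322 TPM. Their order depended on the procedure. Eif5a lay above Eef2 in each fixed library (985.8 to 1636 against 939.8 to 1162 TPM). In tubes Eef2 lay above Eif5a in every library but 200 µM library A (2016 against 2148 TPM). Eef1b2, the exchange factor for eEF1A, followed with 1220 ± 387 TPM. Its place below Eef2 held in tubes only: in fixed cells Eef1b2 had 1406 to 1948 TPM and Eef2 939.8 to 1162 TPM. Eif1 averaged 938 ± 88.6 TPM and Eef1g, a structural subunit of eEF1B, 742 ± 67.3 TPM.

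The paralogs of the abundant factors were far lower. Eef1a2, the muscle and neuron form of eEF1A, had 11 counts in all 12 libraries together, too few to be tested, and was the single member that did not pass the filter on low counts. Eif5a2 averaged 0.837 ± 0.323 TPM. The methyltransferase Eef1akmt3 and the endoplasmic reticulum stress kinase Eif2ak3 averaged 2.01 ± 1.30 and 2.78 ± 1.44 TPM. Within eIF4F, the helicase Eif4a1 averaged 427 ± 38.1 TPM and its paralog Eif4a2 85.7 ± 12.7 TPM, so that Eif4a2 stood at 0.160 to 0.233 of Eif4a1 in the individual libraries. The cap-binding protein Eif4e averaged 66.6 ± 3.74 TPM and its inhibitor Eif4ebp1 280 ± 59.1 TPM. Eif2s1, the regulated α subunit of eIF2, averaged 83.0 ± 18.5 TPM. Reads of some members cannot be placed with certainty. The annotated exons of Eif3j2 share 91.8% of their 50-base stretches with other transcripts, and those of Eif4ebp3 share 65.5%. For Eef1g and Eef1a1 the shares are 44.2% and 39.4%. The main partner was Eif3j1 for Eif3j2, the protein-coding annotation AC115631.1 for Eif4ebp3, and a processed pseudogene each for Eef1g and Eef1a1.

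The share of newly made RNA differed strongly between the members. The deposited new-to-total ratio, the estimated share of a gene's RNA made during the 2 h of labelling, could be compared for the 52 members with at least 100 counts in each of the 8 labelled libraries. Over the members, the mean ratio had a median of 28.3%, against 35.3% over all 5532 genes examined in the same way, 11.8% over 81 cytosolic ribosomal protein genes and 23.2% over 20 aminoacyl-tRNA synthetase genes. If RNA levels are constant and dilution by growth is ignored, the mean ratio of Eef1a1 corresponds to a half-life of 11.3 h and that of Eif1a to 0.956 h.

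**Figure D1:**
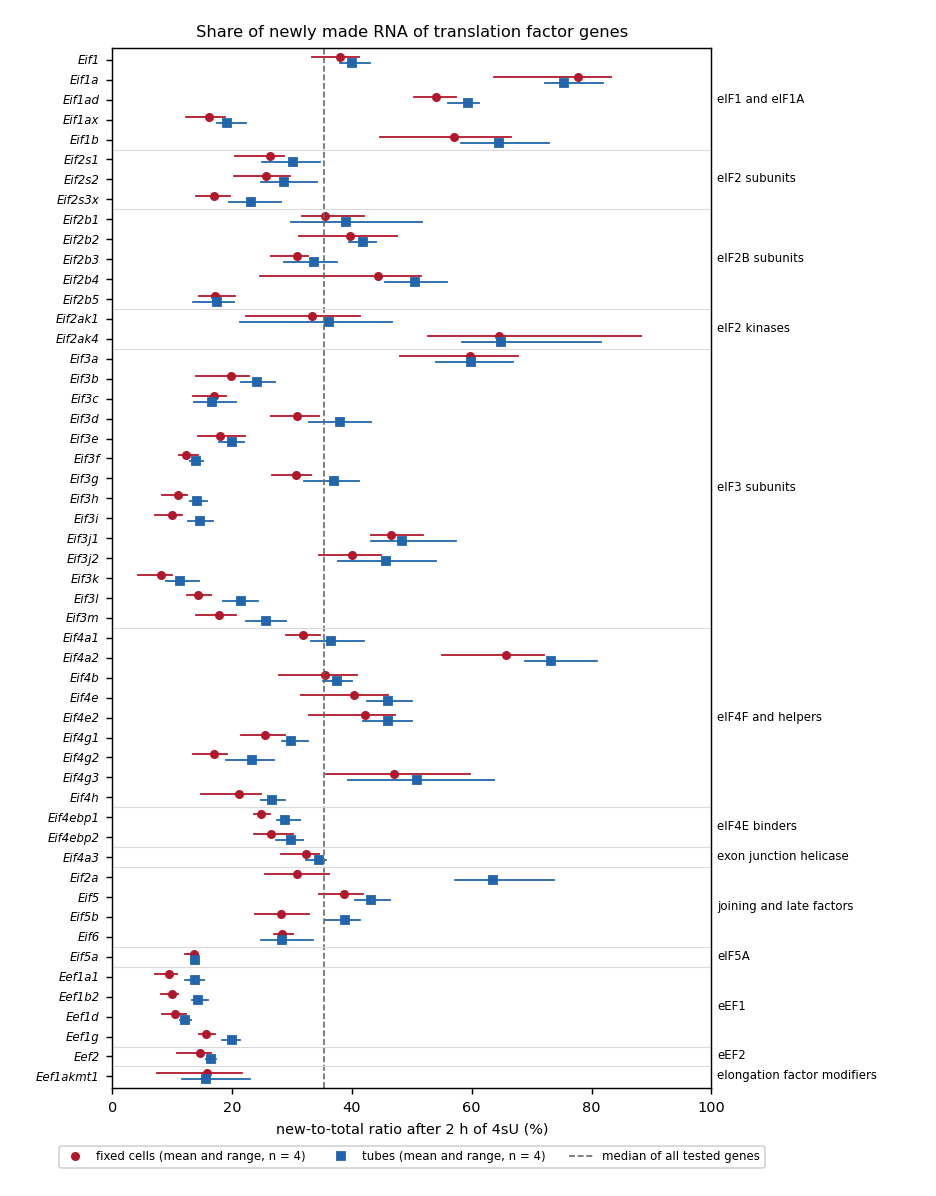
New-to-total ratio (%) of the 52 members with enough counts, by role; circles are means of 4 fixed-cell libraries and squares means of 4 tube libraries, with lines from the lowest to the highest library. The elongation factors lie at the left of the dashed median of all genes (35.3%), while Eif1a, Eif4a2, Eif2ak4, Eif1b and Eif3a lie far to its right.

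Elongation factors and a group of eIF3 subunits had the lowest ratios. Eif3k, a peripheral eIF3 subunit, had 9.89%, 8.69%, 4.32% and 9.29% in the fixed libraries (200 µM A and B, 800 µM A and B), and 10.4%, 14.6%, 8.95% and 11.4% in the tube libraries in the same order. Eef1a1 had 10.7%, 10.6%, 7.06% and 9.31% in fixed cells and 14.7%, 15.3%, 12.9% and 12.1% in tubes, so every fixed library lay below every tube library. Within a dose, fixed and tube libraries did not overlap for 55.1% of all genes at 200 µM and 53.2% at 800 µM. Fixed cells were the lower in 2375 of 3049 and 2689 of 2943 of these genes. How often this held over both doses together was not counted. The other 4 of the lowest 6 were Eef1d at 11.2 ± 1.51%, Eef1b2 at 12.1 ± 2.60%, Eif3i at 12.2 ± 3.08% and Eif3h at 12.6 ± 2.25% (mean ± SD over the 8 labelled libraries). Eif5a stood at 13.7 ± 0.757% and Eef2 at 15.5 ± 1.99%. The 4 eEF1 genes ranged from 11.2% to 17.8%.

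The 14 eIF3 genes, whose products form a single complex, spanned most of the range of the members. Their median was 20.3%, with Eif3k at 9.68 ± 2.87% as the lowest and Eif3a, the large subunit on which the complex is built, at 59.8 ± 7.04% as the highest. Eif3a had 67.8%, 65.8%, 48.0% and 57.1% in fixed cells and 62.3%, 66.9%, 56.4% and 54.0% in tubes, and these groups overlapped. Eif3f and Eif3h stood at 13.1 ± 1.48% and 12.6 ± 2.25%, while the loosely bound subunit genes Eif3j1 and Eif3j2, which share reads, stood at 47.4 ± 5.01% and 42.9 ± 6.40%.

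The 6 highest ratios were spread over several roles. Eif1a, a gene for eIF1A, had the highest, with 81.9%, 82.1%, 63.7% and 83.3% in fixed cells and 73.4%, 81.8%, 72.2% and 73.9% in tubes. Eif4a2 followed at 69.4 ± 7.44%, the amino acid starvation kinase Eif2ak4 at 64.8 ± 12.8%, Eif1b at 60.9 ± 8.77%, Eif3a as above, and Eif1ad, which carries an eIF1A domain, at 56.7 ± 3.90%. The 5 genes of the eIF1 and eIF1A group had a median of 56.7%, with Eif1ax at 17.7% as the lowest, the 9 genes of eIF4F and its helpers 36.5%, and the 5 eIF2B subunits, which recharge eIF2 with GTP, 37.3%. The 3 eIF2 subunits lay lower, at 20.1% to 28.2%. Among the factors described throughout, Eif4a1 stood at 34.2 ± 4.09%, Eif4e at 43.3 ± 5.58%, Eif4ebp1 at 26.8 ± 2.58% and Eif2s1 at 28.2 ± 4.32%.

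Members on the TOP list had a median ratio of 13.1% (9 genes, 11.2% to 36.5%), against 33.5% for the 43 other members. The list was chosen from general knowledge, but with earlier results of these data known. Its members were also more abundant, with a median of 683.6 TPM against 138.6 TPM, and the part of level in this contrast was not tested. Eif4b was the highest of the 9 at 36.5 ± 4.45%, and Eef1g and Eif3e stood at 17.8% and 19.0%. A run of at least 8 bases anywhere in the start-site window and a ratio that could be compared were found for 8 members. Of these, 6 lay between 11.6% (Eef1a1) and 21.7% (Eif3m), while Eif2b2 and Eif4e lay at 40.7% and 43.3%. The run of Eif3m, 11 bases long, began 20 bases before the annotated start, and that of Eif4e, 10 bases long, began 12 bases before it. Both thus ended upstream of the annotated start. Abundant members tended to have low ratios: across the 52 members, Spearman's correlation between the mean ratio and the mean TPM was -0.52 (across genes, which are not independent replicates), against -0.48 over the 5532 genes. The correlation with gene length was 0.28 over the members and 0.39 over all genes.

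**Figure D2:**
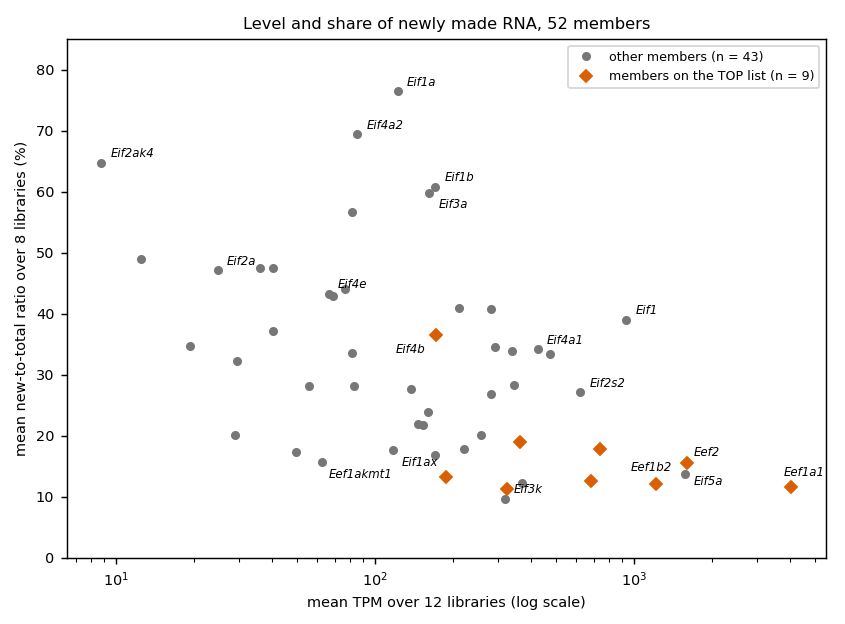
Mean new-to-total ratio (%) over the 8 labelled libraries against mean TPM over the 12 libraries (log scale), 1 point per member; diamonds are the 9 members on the TOP list. All diamonds except Eif4b lie under 20%, among them Eef1a1 at 4057 TPM and 11.6%.

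Some pairs of paralogs had very different shares of new RNA, and others did not. The inhibitors Eif4ebp1 and Eif4ebp2 stood at 26.8 ± 2.58% and 28.2 ± 2.96%, and the cap-binding proteins Eif4e and Eif4e2 at 43.3 ± 5.58% and 44.1 ± 5.49%, differences smaller than either SD (pairs named after their values were seen). Eif4a2 exceeded Eif4a1 in 8 of 8 libraries, by 35.2 ± 4.24 percentage points (mean ± SD, n = 8), and the deposited intervals from the 0.05 to the 0.95 quantile were apart in every library. Both helicase genes hold small nucleolar RNA genes within their bounds, 5 in Eif4a2 and 3 in Eif4a1, and 194 exonic bases of Eif4a2 overlap Rfc4 on the opposite strand. Small nucleolar RNA genes lie within 9 of the 65 members, and their part in the ratios was not tested. Eif1a exceeded its X-linked paralog Eif1ax by 58.9 ± 5.65 points, also in 8 of 8 libraries with the intervals apart, although both stood at a like level, with a TPM of Eif1a at 0.812 to 1.34 times that of Eif1ax. The eIF4G scaffold Eif4g3 exceeded Eif4g1 by 21.3 ± 9.25 points in 8 of 8 libraries, with intervals apart in 7. These differences are described without a test.

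The rarer paralogs were less certain. Eif2s3y, the Y-linked form of the eIF2 γ subunit, exceeded its X-linked form Eif2s3x by 18.4 ± 19.6 points, in 6 of 8 libraries and with intervals apart in 4. It had 17.9%, 26.9%, 19.0% and 15.7% in fixed cells and 83.6%, 54.0%, 52.3% and 39.0% in tubes, with as few as 32 counts in a labelled library. Eif5a2 exceeded Eif5a by 35.8 ± 26.3 points, from 126 counts of Eif5a2 in the 8 labelled libraries together. Eef1a2 had too few counts for a comparison with Eef1a1.

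**Figure D3:**
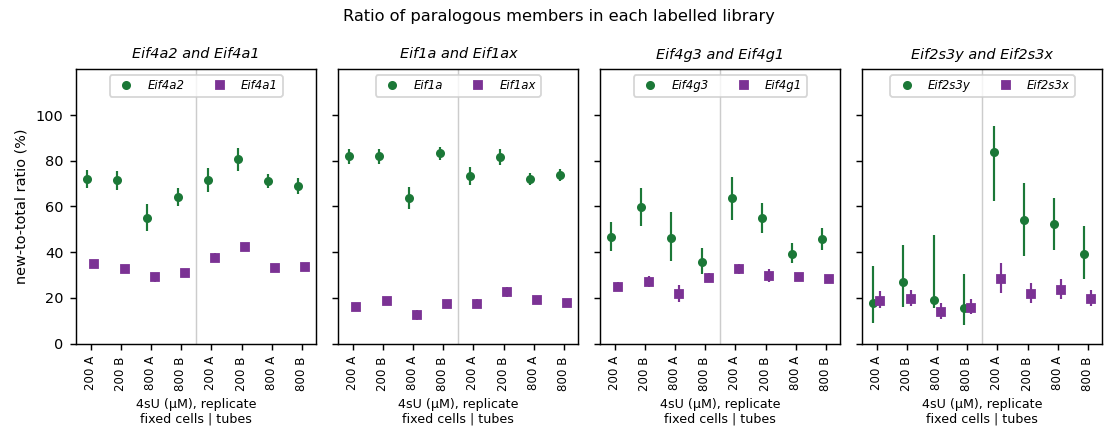
New-to-total ratio (%) of 4 pairs of paralogs in each labelled library, fixed cells at the left and tubes at the right of each panel; lines span the deposited 0.05 to 0.95 quantiles. Eif4a2 and Eif1a lie above Eif4a1 and Eif1ax in all 8 libraries, whereas Eif2s3y lies above Eif2s3x in 6.

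The ratio was then compared between fixed cells and tubes at the same dose, with limma on the logit scale and Benjamini-Hochberg (BH) adjustment over the 5532 genes. Most members had lower ratios in fixed cells, but none passed an adjusted p under 0.05. At 800 µM, 48 of 52 members lay lower, with a median logit difference of -0.26 against -0.31 over all genes, and 0 were called, as among all genes (0% called; 20.3% had an unadjusted p under 0.05, and so had 7 members). At 200 µM, 44 of 52 lay lower, with a median of -0.17 against -0.19 over all genes, and again 0 were called (0% of all genes; 19.1% unadjusted, and 6 members). Without fixed 800 µM library B, 9 members passed at 800 µM (17.3%, against 16.9% of all genes), all lower in fixed cells.

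Eif2a, a factor that can bring initiator tRNA to the ribosome in place of eIF2, differed most. At 200 µM it had 27.1% and 34.5% in fixed cells, against 73.7% and 63.7% in tubes. At 800 µM it had 25.5% and 36.2% in fixed cells, against 57.1% and 59.7% in tubes. The deposited intervals of the fixed and tube libraries were apart at both doses, with the highest upper bound in fixed cells at 42.2% and the lowest lower bound in tubes at 52.1%. The logit difference was -1.61 at 200 µM (SE 0.26, limma BH-adjusted p = 0.0773) and -1.16 at 800 µM (SE 0.26, adjusted p = 0.113), so neither passed. Without fixed 800 µM library B, which leaves only library A that stood apart, the difference at 800 µM was -1.41. Without library A it was -0.905. The total level of Eif2a was 41.7 to 58.4 CPM in the labelled fixed libraries and 42.3 to 53.0 CPM in the labelled tube libraries. Eif2a lies at chr3:58525821-58557501 (GRCm38, GENCODE M21), where 72 bases of its exons overlap Serp1 on the opposite strand, and no source used here states whether the counting used strand.

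Next after Eif2a at 800 µM were Eif5b, the GTPase that joins the ribosomal subunits, and Eif3i, a core eIF3 subunit. Eif5b had 23.8% and 25.8% in fixed cells, against 35.6% and 40.2% in tubes (logit difference -0.61, SE 0.16, limma BH-adjusted p = 0.134). The values of Eif3i were 7.18% and 9.39% in fixed cells, against 15% and 12.7% in tubes (-0.58, SE 0.19, adjusted p = 0.163). At 200 µM, Eif4g2, an eIF4G relative that lacks the eIF4E-binding part, had 18.7% and 19.1% in fixed cells, against 26.2% and 27.0% in tubes (-0.44, SE 0.15, adjusted p = 0.185). Eif3l, another eIF3 subunit, had 15.2% and 12.5%, against 18.4% and 24.3% (-0.52, SE 0.18, adjusted p = 0.197). The fixed and tube libraries of each of these 4 members did not overlap at the dose named, which held for 63.5% of the members and 53.2% of all genes at 800 µM and for 63.5% and 55.1% at 200 µM, while no member but Eif2a had a logit difference beyond -1.

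A higher dose did not go with a higher ratio. At 800 µM, 49 of 52 members had a lower ratio than at 200 µM in fixed cells (median logit difference -0.25, against -0.32 over all genes) and 47 of 52 in tubes (-0.16, against -0.20 over all genes). In fixed cells these values include 800 µM library A, which stood apart and lay below library B for most members. Eef2 had 10.85% in library A and 16.46% in library B, against 15.45% and 15.54% at 200 µM. For other members, such as Eif2s2 below, both 800 µM libraries lay lower. No member was called in either procedure, against 0.0181% of all genes in fixed cells, which is 1 gene, and 0% in tubes, while 5 and 2 members had an unadjusted p under 0.05, against 16.6% and 8.44% of all genes. In fixed cells the 3 with the smallest p were Eif2s2, the β subunit of eIF2, with 20.3% and 23.0% at 800 µM against 29.7% and 29.7% at 200 µM (limma BH-adjusted p = 0.261), Eif1b (adjusted p = 0.279) and the eIF2B subunit Eif2b2 (adjusted p = 0.287). In tubes they were Eif4g3 (adjusted p = 0.565), Eif4g2 (0.569) and Eif3c, an eIF3 core subunit (0.592).

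Total RNA levels were compared between fixed cells and tubes without 4sU, which leaves the labelling aside. Eef1a1, Eef1b2 and several initiation factors were higher in fixed cells, and Eef2, Eif2b5 and Eif4g3 were lower. In edgeR's quasi-likelihood test over all 11080 genes, 20 of the 64 members tested passed a BH-adjusted p under 0.05, 17 higher and 3 lower in fixed cells. That is 31.2% of the members, against 31.4% of all genes (16.2% higher and 15.2% lower). The median log2 fold change of the members was 0.23, against -0.009 over all genes, 0.87 over the ribosomal protein genes and 0.15 over the synthetase genes. Scaling on the 1844 genes with the lowest ratios shifted the all-gene median by -0.34. These genes were chosen by the ratios of the labelled libraries of this series. They include the members with the lowest ratios, up to Eif4h at rank 21 of 52, so this scaling is not independent of the members. With this scaling the members' median turned to -0.12, with 10 members higher and 14 lower, and 13 of the 20 were still called. The members' share of all counts was 2.41% and 2.45% in fixed cells and 2.13% and 2.21% in tubes, but their share of TPM was 1.83% and 1.86% in fixed cells and 1.87% and 1.89% in tubes. In such bulk libraries, all these levels are shares of a library, and less RNA per cell cannot be told apart from fewer cells.

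**Figure D4:**
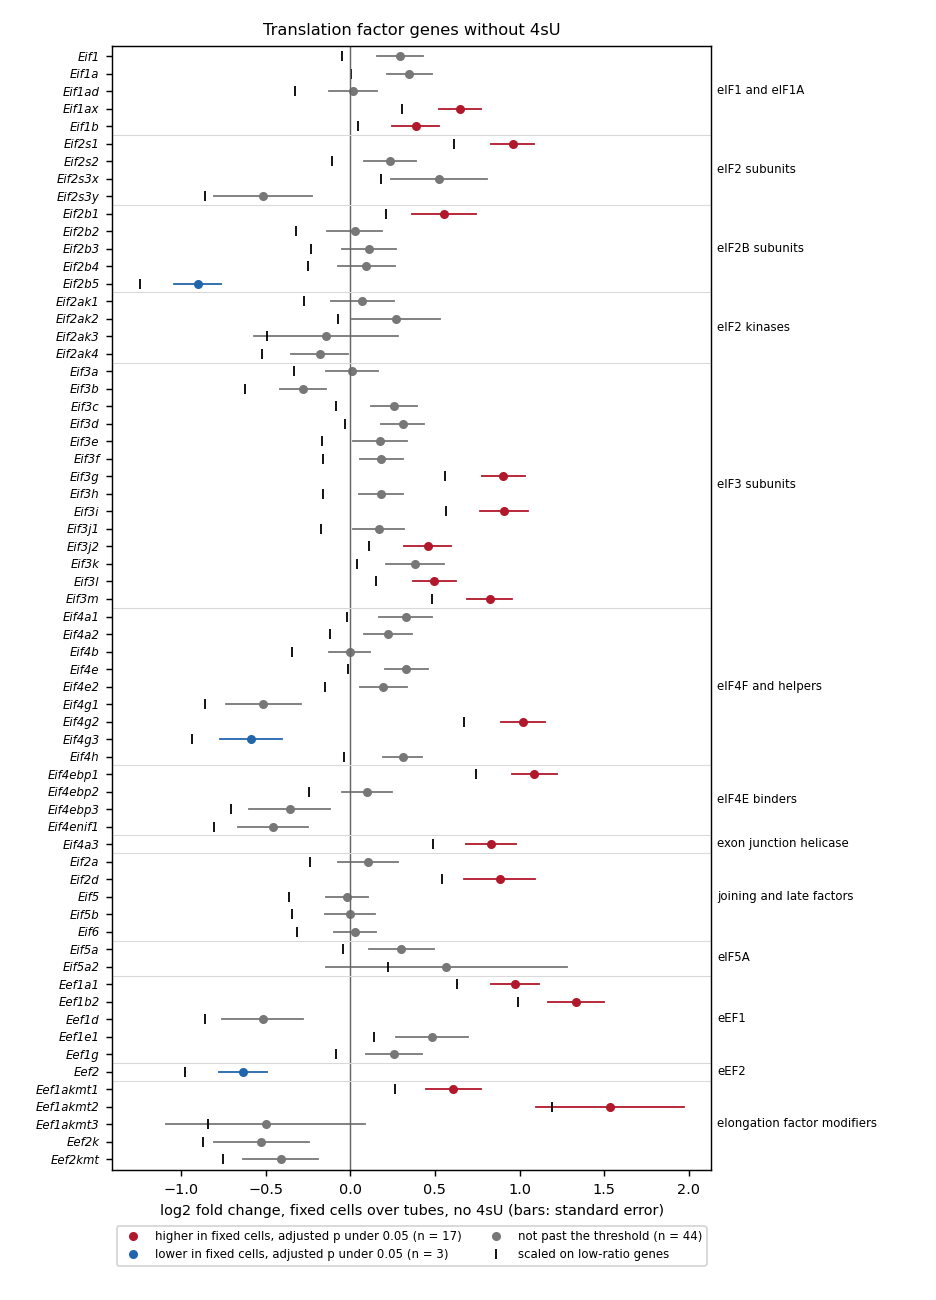
Log2 fold change of 64 members, fixed cells over tubes without 4sU, with SE as bars; filled colours mark an adjusted p under 0.05, and black ticks give the value with scaling on low-ratio genes. Of the coloured points, 17 lie to the right of 0 and 3 (Eef2, Eif2b5, Eif4g3) to the left, and the ticks lie to the left of their points.

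Among the elongation factors, Eef1b2 and Eef1a1 were higher in fixed cells and Eef2 was lower. Eef1b2 had 1649 and 1642 CPM in fixed cells, against 603.5 and 702.6 CPM in tubes, a log2 fold change of 1.33 (SE 0.17, edgeR BH-adjusted p = 1.69e-05). Eef1a1 had 4429 and 4686 CPM in fixed cells, against 2273 and 2369 CPM in tubes (0.97, SE 0.14, adjusted p = 7.51e-05). Both were higher in each fixed library than in each tube library, but how often this held over all genes was not counted. Eef1d, another exchange subunit, had 376.1 and 386.1 CPM in fixed cells, against 435.0 and 656.4 CPM in tubes and did not pass (-0.52), but was called lower with scaling on low-ratio genes (-0.86, adjusted p = 0.00599). Eef1g did not pass either (0.26, and below 0 with that scaling). Eef2, at chr10:81176631-81182498, fell to 1998 and 1969 CPM in fixed cells, against 2702 and 3465 CPM in tubes (-0.64, SE 0.14, adjusted p = 0.00244), a call that was lost without tube library B of the no 4sU group (adjusted p = 0.0687). Eef1akmt2, which methylates eEF1A, showed the largest change among the called members, with 9.21 and 10.6 CPM in fixed cells, against 4.81 and 2.18 CPM in tubes (1.54, SE 0.44, adjusted p = 0.0119). At these low counts its call was lost without fixed library B (adjusted p = 0.0757) or tube library B (adjusted p = 0.158).

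Among initiation factors, the inhibitor Eif4ebp1, which blocks eIF4E when mTOR is inactive, had 387.5 and 377.2 CPM in fixed cells, against 187.5 and 172.0 CPM in tubes (1.09, SE 0.13, edgeR BH-adjusted p = 1.51e-05). Eif4g2 had 1397 and 1373 CPM in fixed cells, against 734.4 and 633.4 CPM in tubes (1.02, SE 0.13, adjusted p = 2.07e-05). Eif2s1 had 205.3 and 197.0 CPM in fixed cells, against 108.7 and 98.4 CPM in tubes (0.96, SE 0.13, adjusted p = 2.94e-05). These 3 members were about as far apart between procedures as Eef1a1. Eif2b5, the catalytic subunit of eIF2B, fell to 59.2 and 62.9 CPM in fixed cells, against 112.0 and 116.5 CPM in tubes (-0.90, SE 0.14, adjusted p = 0.000107). Eif4g3 had 44.7 and 42.2 CPM in fixed cells, against 67.7 and 63.1 CPM in tubes (-0.59, SE 0.18, adjusted p = 0.0202), and its call was lost whichever of the 4 libraries was left out (adjusted p up to 0.105). Eef1b2, Eif4ebp1, Eif4g2, Eef1a1, Eif2s1 and Eif2b5 passed with each library left out in turn, and all 9 members named by rank kept their direction and their call with scaling on low-ratio genes.

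The other 11 called members, named here after their values were seen, were all higher in fixed cells, by log2 0.39 to 0.91. Of 14 eIF3 genes, 5 were among them (35.7%, near the 31.4% of all genes called). They were Eif3i (0.91), Eif3g (0.91), Eif3m (0.82), Eif3l (0.50) and Eif3j2 (0.46), whose reads are shared with Eif3j1. The remaining 6 were Eif2d, an alternative carrier of initiator tRNA (0.88), the exon junction helicase Eif4a3 (0.83), Eif1ax (0.65), the methyltransferase Eef1akmt1 (0.61), the eIF2B subunit Eif2b1 (0.55) and Eif1b (0.39). With scaling on low-ratio genes, Eif3i, Eif3g, Eif3m and Eif4a3 were still called, while Eif3l, Eif3j2, Eif2d, Eif1ax, Eef1akmt1, Eif2b1 and Eif1b did not pass (adjusted p 0.0634 to 0.83), with Eif1b at 0.04. None of the 4 eIF2 kinases passed, with log2 fold changes from -0.18 to 0.27, although Eif2ak4 was called lower with scaling on low-ratio genes (-0.53, edgeR BH-adjusted p = 0.0210). Neither did Eif4e (0.33), Eif4a1 (0.33), Eif4a2 (0.22) or Eif5a (0.30), all 4 of which turned below 0 with scaling on low-ratio genes. Short genes tended to be higher in fixed cells: Spearman's correlation between the log2 fold change and gene length was -0.35 over the 64 members and -0.42 over all genes, and the part of length in these differences was not tested.

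The effect of 4sU itself on total RNA levels was compared within each procedure. In fixed cells at 800 µM, 2 of 64 members rose and 0 fell (3.12% called, against 2.66% of all genes, of which 0.776% rose and 1.89% fell). At 200 µM in fixed cells 0 members were called (against 0.812% of all genes, 0.244% higher and 0.569% lower; 3 had an unadjusted p under 0.05, against 12.6% of all genes, and DESeq2 called 0 as well). In tubes at 800 µM 0 were called (against 1.87% of all genes, 0.912% higher and 0.957% lower; 15 had an unadjusted p under 0.05, against 17.6% of all genes, and DESeq2 called 2). In tubes at 200 µM 4 rose and 1 fell (7.81% called, against 3.75% of all genes, of which 2.36% rose and 1.39% fell). The median log2 fold change of the members was 0.13 and 0.10 in fixed cells and 0.14 and 0.11 in tubes at 800 and 200 µM, against -0.001, -0.002, 0.027 and 0.034 over all genes. With scaling on low-ratio genes, these 4 medians turned to -0.06, -0.01, -0.02 and -0.08, while the medians of all genes moved by -0.18, -0.11, -0.17 and -0.19. The comparisons at both doses share the libraries without 4sU.

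In fixed cells the 2 members that rose at 800 µM were Eif3m and Eif4ebp2. Eif3m, an eIF3 subunit at chr2:104999656-105017080, had 272.6 and 248.1 CPM at 800 µM, against 159.4 and 184.7 CPM without 4sU (log2 0.60, SE 0.13, edgeR BH-adjusted p = 0.0193). Its 200 µM libraries lay between, at 215.2 and 242.2 CPM (0.41, SE 0.13, adjusted p = 0.172). Eif4ebp2, a second inhibitor of eIF4E, at chr10:61428491-61452661, had 251.0 and 203.1 CPM at 800 µM, against 146.1 and 143.1 CPM without 4sU (0.65, SE 0.15, adjusted p = 0.0217), and 137.9 and 161.0 CPM at 200 µM. Leaving out either fixed library without 4sU ended both calls (adjusted p 0.0641 to 0.253), leaving out 800 µM library A ended that of Eif4ebp2 (0.0621), and Eif3m did not pass with scaling on low-ratio genes (0.0577). With that scaling Eif4ebp2 rose (0.46, adjusted p = 0.0476) and Eif4ebp3, another inhibitor of eIF4E, whose reads are shared with another gene, was called lower (-1.05, adjusted p = 0.0255). Without 800 µM library B, 16 members passed (25%, against 10.6% of all genes), 15 of them higher, and library A, with the scaling factor of 0.835, then stood alone for its group. The other members with the smallest p at 200 µM in fixed cells were the helicase helper Eif4h (0.32, adjusted p = 0.245) and Eif1ax (0.28, adjusted p = 0.349).

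In tubes, Eif4ebp2 had 192.9 and 246.0 CPM at 200 µM, against 131.2 and 138.9 CPM without 4sU (0.70, SE 0.15, edgeR BH-adjusted p = 0.0165), and 169.8 and 181.5 CPM at 800 µM. The eIF3 subunit Eif3g had 183.0 and 180.1 CPM at 200 µM, against 125.8 and 123.9 CPM without 4sU (0.54, SE 0.13, adjusted p = 0.0272). Eif3b, a core eIF3 subunit, had 335.2 and 264.9 CPM, against 207.1 and 209.8 CPM (0.52, SE 0.13, adjusted p = 0.0379). Eif4a3 had 348.9 and 394.5 CPM, against 254.3 and 250.8 CPM (0.56, SE 0.15, adjusted p = 0.0430). Eif3a, by contrast, fell to 399.1 and 283.8 CPM, against 489.0 and 552.6 CPM (-0.61, SE 0.15, adjusted p = 0.0375), so subunits of eIF3 moved in opposite directions. All 5 calls were lost when either tube library without 4sU or 200 µM library B was left out, and without 200 µM library A only those of Eif4ebp2 and Eif3a held (adjusted p 0.0146 and 0.0161). Eif4a3 also did not pass with RLE scaling (0.0511). With scaling on low-ratio genes 3 members were called, Eif4ebp2 higher and Eif3a and Eif2b5 lower. At 800 µM in tubes, the 3 members with the smallest p were Eef1a1 (0.51, adjusted p = 0.0751), Eif4g2 (0.43, adjusted p = 0.0981) and Eif3m (0.44, adjusted p = 0.102), and DESeq2 called Eef1a1 and Eif4g2.

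**Figure D5:**
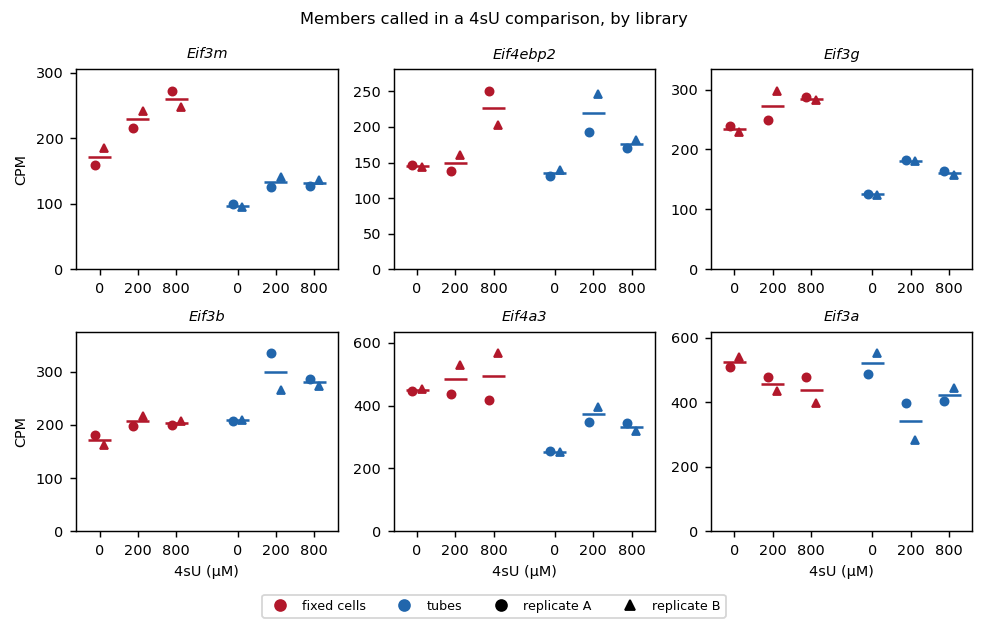
CPM of the 6 members called in a 4sU comparison, by dose of 4sU (0, 200 and 800 µM) in fixed cells and in tubes; circles are replicate A, triangles replicate B and lines the mean. Eif3m lies at 248.1 to 272.6 CPM at 800 µM in fixed cells, above its libraries without 4sU, and Eif3a is lowest at 200 µM in tubes.

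Members with a low share of new RNA tended to have the higher log2 fold changes with 4sU. Across the 52 members with a ratio, Spearman's correlation of the log2 fold change with the mean ratio was -0.37 at 800 µM and -0.32 at 200 µM in fixed cells, and -0.26 and -0.24 in tubes. Over all 5532 genes it was -0.39 and -0.31 in fixed cells and -0.27 and -0.24 in tubes. These are correlations across genes of the same libraries, and the part of the labelled RNA in the 4sU effects on single members was not tested.

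Whether the effect of 4sU differed between fixed cells and tubes was tested as an interaction, and 0 of 64 members and 0% of all genes passed at either dose in edgeR (DESeq2 also called 0 members). At 800 µM, 3 members had an unadjusted p under 0.05, against 5.90% of all genes, and at 200 µM 3, against 8.96%. At 800 µM these were Eif3f, with a difference of the log2 fold changes (fixed minus tubes) of -0.40, Eef1d with 0.75 and Eef2kmt, which methylates eEF2, with 0.67 (adjusted p = 0.822 each). Without fixed 800 µM library B, Eef1d passed with a difference of 1.14 (adjusted p = 0.0345), as did 1.09% of all genes, and 277 bases of its exons overlap Naprt on the same strand. At 200 µM they were Eif4ebp2, with -0.65 (adjusted p = 0.359), Eif2b5 with 0.49 (0.485) and Eif4a3 with -0.46 (0.542).

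Other genes of the translation machinery were read for comparison, as 47 rows from lists of termination and recycling, poly(A) and helicase partners, mTOR and eIF4E kinases, eIF2 phosphatase, hypusine and diphthamide enzymes, and mitochondrial factors. In fixed cells against tubes without 4sU, 5 were higher and 10 lower, which is 31.9% of them and near the 31.4% of all genes called. Lower were Pabpc1 (log2 -0.93) and Pabpc4 (-0.82), which bind the poly(A) tail and eIF4G, Larp1 (-0.67), which binds TOP mRNAs, the mTOR complex 1 subunit Rptor (-1.32), the S6 kinase Rps6kb1 (-0.82), the mTOR inhibitor gene Tsc1 (-0.73), the eIF2 partner Abcf1 (-1.24), Dhps (-0.91), Dph5 (-0.69) and Mtif2 (-1.29). The 5 that were higher were the termination factor Gspt1 (0.55), the recycling factor Mcts2 (0.90), the helicase Dhx29 (0.50), Dohh (0.69), which completes the hypusine of eIF5A, and Dph3 (0.67). With 4sU, Ppp1r15a, a subunit that directs a phosphatase to eIF2, fell at 200 µM in fixed cells (-1.01, SE 0.19, edgeR BH-adjusted p = 0.0214) and at 800 µM in tubes (-0.92, SE 0.20, adjusted p = 0.0206), and Mtor rose at 800 µM in fixed cells (0.83, SE 0.21, adjusted p = 0.0418). No other gene of these lists passed with 4sU.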

How the data were processed

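RNA of 12 libraries was read, 2 for each of 6 groups. The deposited read counts are expected counts, as 16.2% to 22.0% of a library's values were not whole, and they were rounded for testing. The new-to-total ratio is a deposited fraction for each gene of the 8 labelled libraries, given per the file headers as its most probable value, its mean and its 0.05 and 0.95 quantiles. The deposited alpha and beta, parameters of a beta distribution for each ratio and handled as scores with no fixed range, served only for a check: the mean they imply lay within 0.001 of the deposited one for 86.9% of values at genes examined. Cutadapt, Bowtie2 2.3.0 and STAR 2.7.10b appear in the submitters' processing notes. Genome build, annotation, strand setting and the program behind the ratio were not given in the sources used here. Ratios exist for labelled libraries only, and hence without an unlabelled background.

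A single fit of all 6 groups in edgeR 4.0.16 (R 4.3.3) gave the tests of counts, by quasi-likelihood F tests after TMM scaling, genes kept by filterByExpr (minimum count 10, minimum total 15) and BH adjustment at 0.05. It had 6 residual degrees of freedom, a median prior of 12.1 and a common biological variation of 12.3%. Ratios, kept within 0.001 to 0.999, were tested with limma 3.58.1 (trend) on the logit scale. TPM used the deposited gene length. No replicate pair agreed within sampling noise (chi-square per degree of freedom 3.23 to 22.8). DESeq2 1.42.0, other scalings, no filter, other ratio values and scales, a replicate block and leaving out libraries were tried. Coordinates of genes come from GENCODE M21 (GRCm38) by gene ID, which held all 65 members, and start-site sequences are RefSeq's.

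The members and lists were chosen with earlier results of these data known. In each comparison every called member was named, or the 6 largest rises and the 6 largest falls where over 12 were called, or the 3 with the smallest p where none was. For the level, the 6 highest and 4 lowest members were named, for the ratio the 6 highest and 6 lowest, and a few factors and paralogs throughout.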

Additional observations from a re-analysis of the deposited data

How the results depend on the processing

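Of 372 values of named members under an alternative, 330 kept their direction and their side of the threshold, 35 no longer passed, 7 passed newly and 0 turned in direction. Members that were named without being called had no call to lose, so these totals say little about how firm the calls were. Most of the losses came from fits with a library left out. Counts of called members moved more. At 800 µM in fixed cells, where 2 were called, DESeq2 called 7 (6 higher, 1 lower) and no filter 6, and leaving out a library gave 0 to 16 (0 without either library without 4sU, 1 without 800 µM library A, 16 without library B). The members called at 800 µM in fixed cells were 11.9% with DESeq2 and 9.23% with no filter, against 6.94% and 5.43% of all genes. For 800 µM in tubes, where 0 were called, DESeq2 called 2 (3.23%, against 2.79% of all genes) and no filter 1 (1.54%, against 3.21%). For 200 µM in tubes, where 5 were called, scaling on low-ratio genes left 3, and leaving out a library gave 0 to 2. For fixed cells against tubes without 4sU, where 20 were called, leaving out a library gave 13 to 18 (13 without fixed library B), and scaling on low-ratio genes split the calls of all genes into 751 higher and 3633 lower, against 1796 and 1684. With that scaling the splits of all genes for 4sU were 40 higher and 715 lower at 800 µM in fixed cells (against 86 and 209), 18 and 185 at 200 µM in fixed cells (against 27 and 63), 48 and 330 at 800 µM in tubes (against 101 and 106), and 78 and 554 at 200 µM in tubes (against 262 and 154). Leaving out a library gave 0 to 1 for the interaction at 800 µM, 0 to 9 for the ratio of fixed cells against tubes at 800 µM and 0 to 2 for the ratio of 800 against 200 µM in fixed cells, each highest without fixed 800 µM library B. Where a library was left out, the lone library of its group was assumed to vary like the other groups. Wherever leaving out a library changed the count of called members, the share of all genes called moved the same way. The cause of these changes was not tested.

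The replicate letters did not pair the libraries: correlations of the deviations of same-lettered libraries from their group means were -0.104 to 0.095 over 15 pairs of groups. With a replicate block, 2 members were called at 800 µM in fixed cells, 5 at 200 µM in tubes, 19 for fixed cells against tubes without 4sU and 0 elsewhere, and it changed no call of a named member. Depth limited the comparison of ratios to 52 members, and the values of Eif2s3y and Eif5a2 rest on as few as 32 counts in a labelled library and on 126 counts in all labelled libraries.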
